A study of Mus musculus with 5 samples.

Results

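The vessel genes described here are 10 genes that encode angiogenic factors and endothelial receptors, chosen by symbol because a closed pupillary membrane was part of the mutant eye phenotype. They are the ligands Vegfa, Angpt1 and Angpt2, the receptors Kdr, Flt1, Tek, Tie1 and Eng, and the junction genes Pecam1 and Cdh5. All 10 were found among the 22183 genes of the deposited table, each with a single identifier. They were measured in 5 poly(A) RNA libraries from whole lenses of mice at postnatal day 14 (P14), each a pool of 4 to 6 lenses. The 2 cKO pools came from mice with Cre and floxed Yap1, either Yap1f/f;Cre or heterozygous Yap1f/+;Cre, in which YAP1, a co-activator of the Hippo pathway, was to be deleted. These lenses were picked by a severe phenotype, microphthalmia and a closed pupillary membrane, whichever genotype they had. The 3 Ctrl pools came from Yap1f/f and Yap1f/+ littermates with no abnormality, so the groups share the floxed allele, although the genotype field calls the controls WT. The Cre driver, and whether membrane tissue stayed on the dissected lenses, are not stated in the labels.

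The lens itself holds no blood vessels. Before birth it is fed by a transient net, the hyaloid vessels, the tunica vasculosa lentis and the pupillary membrane, which in mice regresses in the first weeks after birth. VEGF-A, which endothelial cells need to grow and survive, signals mainly through KDR, while FLT1 binds it tightly and signals weakly. Angiopoietin 1 activates the receptor TEK (also called Tie2), angiopoietin 2 mostly opposes it, and TIE1 is a related receptor that modulates TEK. PECAM-1 and VE-cadherin (Cdh5) hold endothelial cells together, and endoglin (Eng) is a co-receptor for ligands of the TGF-β family. In mice, angiopoietin 2 and WNT7B take part in the regression of the hyaloid vessels.

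Libraries held 22047553 to 25762805 counts. Yap1 itself had 92 and 61 counts in cKO 1 and 2, against 155, 133 and 143 counts in Ctrl 1, 2 and 3, and its log2 fold change of −1.08 (SE 0.33) did not pass the test (edgeR adjusted p = 0.0759). A gene is said to be called, or to have risen or fallen, where edgeR's quasi-likelihood test gave a Benjamini-Hochberg adjusted p under 0.05 over all 11724 genes that passed the count filter. By this rule 675 genes rose and 906 fell, and 42.7% of calls were rises, against 63.2% when libraries were scaled by their totals alone. That scaling moved the median log2 fold change of all genes by 0.219. Without Ctrl 1, 2 or 3 the rises numbered 26, 6 and 30 and the falls 39, 15 and 52. Most calls were thus lost whichever Ctrl library was left out. Such a fit also has fewer libraries to estimate the spread from, so the loss does not single out a Ctrl library. The pair of cKO libraries correlated at 0.916 over log2 CPM, less than any pair of Ctrl libraries (0.975 to 0.985). Summed over 4 Y-linked genes, cKO 1 and 2 had 2 and 0 counts and Ctrl 1, 2 and 3 had 1417, 1599 and 1896, so that the sex of the mice and the genotype cannot be told apart. Lens markers were high in all 5 libraries, and crystallins took 69.1 and 66.4% of counts in cKO and 71.3 to 73.9% in Ctrl.

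Vegfa was the single vessel gene of the 10 that passed the test, and it rose in cKO. Transcripts of Tie1, Pecam1, Cdh5 and Flt1 lay higher in both cKO libraries than in every Ctrl library, by estimates of 2.07-fold to 4.02-fold, but none passed. Tek and Angpt2 lay lower in both cKO libraries than in every Ctrl library, by estimates of 1.84-fold and 1.85-fold, and did not pass either. Eng and Kdr overlapped between the groups, and Angpt1 was close to absent. In all, 1 of 9 tested genes rose and 0 fell by edgeR, against a background of 13.5% called in either direction (5.76% risen and 7.73% fallen). At an unadjusted p under 0.05, 3 were higher and 1 was lower, where 1737 and 2044 of all 11724 tested genes were. DESeq2 called 2 higher and 0 lower, against 1209 higher and 1521 lower among all genes. The cKO libraries lay above all Ctrl libraries for 5 of the 9 genes, where 22.8% of all tested genes did so, and below them for 2, where 28.7% did. The median log2 fold change of the 9 was 1.05, against −0.06 over all tested genes. Cdh5 passed the count filter only through the cKO libraries, so its place among the tested genes depended on its being high there. In pooled tissue, fewer cells of a type and less RNA per cell cannot be told apart.

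**Figure D1:**
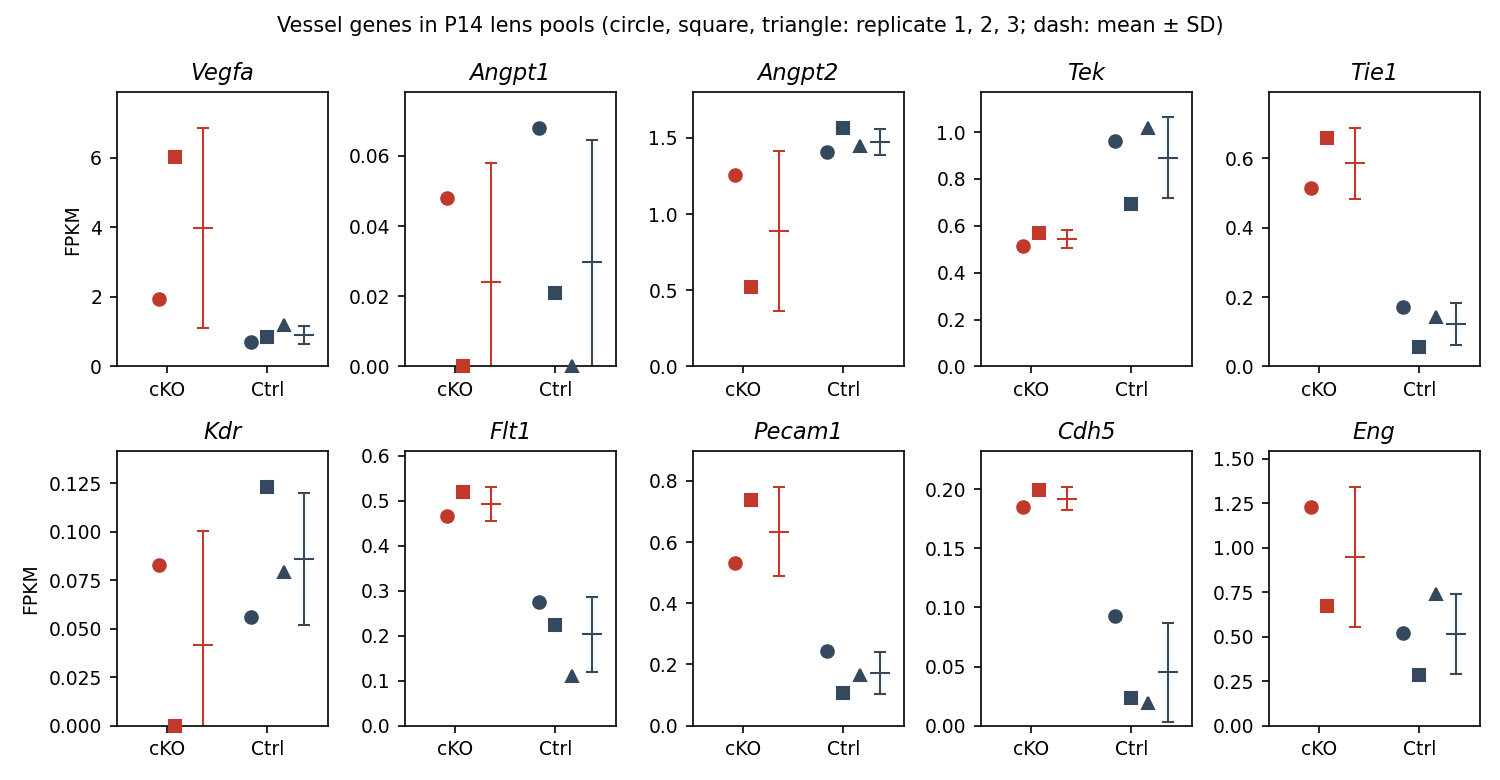
Length-scaled levels (FPKM, linear axes from 0, 1 panel per gene) of the 10 vessel genes in each library, with cKO in red and Ctrl in dark blue. Points are libraries and dashes with bars are the group mean ± SD (n = 2 cKO and 3 Ctrl). Both cKO points lie above all Ctrl points for Vegfa, Tie1, Flt1, Pecam1 and Cdh5 and below them for Angpt2 and Tek.

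All 10 transcripts were scarce next to the lens genes. On the FPKM scale, which corrects for gene length, Vegfa, the highest of the 10 in cKO, exceeded 71.6% of the 15761 detected genes there and 49.6% in Ctrl. The order of the levels differed between the groups. In cKO lenses Vegfa came first, at 3.98 ± 2.88 FPKM (SD, n = 2), followed by Eng, Angpt2, Pecam1, Tie1, Tek and Flt1 between 0.949 and 0.493 FPKM, and then by Cdh5, Kdr and Angpt1 at 0.192, 0.0415 and 0.024 FPKM. Among these cKO means, neighbours overlapped between libraries except at the steps from Vegfa to Eng, from Flt1 to Cdh5 and from Cdh5 to Kdr. In Ctrl lenses Angpt2 came first, at 1.47 ± 0.0836 FPKM (SD, n = 3), followed by Vegfa, Tek and Eng between 0.905 and 0.515 FPKM. Flt1, Pecam1, Tie1, Kdr, Cdh5 and Angpt1 made up the rest of the Ctrl order, from 0.203 to 0.0297 FPKM. There the only neighbours whose libraries did not overlap were Angpt2 and Vegfa, and Eng and Flt1.

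Among the ligands, Vegfa (ENSMUSG00000023951) was at 1.95 and 6.01 FPKM in cKO 1 and 2, against 0.69, 0.837 and 1.19 FPKM in Ctrl 1, 2 and 3. The groups did not overlap, cKO 2 was by far the highest library, and cKO 1 lay nearer to the Ctrl libraries than to cKO 2. In CPM, counts scaled by TMM to a common library size, Vegfa averaged 11.0 ± 7.96 in cKO (n = 2) and 2.87 ± 0.453 in Ctrl (n = 3). It rose by 1.93 in log2 units (SE 0.48, edgeR adjusted p = 0.0484), which is 3.81-fold. The size of this rise depended on cKO 2, since the estimate was 0.89 without that library and 2.51 without cKO 1. Each of these fits has 1 cKO library, so no spread within cKO enters it. Leaving out Ctrl 1, 2 or 3 kept the estimate between 1.89 and 2.12 but ended the call (edgeR adjusted p = 0.143 to 0.183).

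Angpt2 (ENSMUSG00000031465) had 1.26 and 0.52 FPKM in cKO 1 and 2, against 1.41, 1.57 and 1.45 FPKM in Ctrl 1, 2 and 3. The Ctrl libraries were close together, cKO 1 lay just under them and cKO 2 far lower. Its log2 fold change was −0.89 (SE 0.47, edgeR adjusted p = 0.242). Without cKO 1 it stood at −1.84, and without cKO 2 it stood at −0.32. Angpt1 (ENSMUSG00000022309) had 5 and 0 counts in cKO 1 and 2, against 7, 2 and 0 counts in Ctrl 1, 2 and 3. It did not pass the count filter, and a difference was not detectable at this depth, where 0 counts allow up to 3 counts in a library (0.112 to 0.146 CPM). Of these angiopoietins the lens libraries of both groups therefore held mainly Angpt2.

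The related receptor genes Tie1 and Tek stood in different proportion in the groups. Tie1 (ENSMUSG00000033191) had 0.513 and 0.658 FPKM in cKO 1 and 2, against 0.172, 0.055 and 0.142 FPKM in Ctrl 1, 2 and 3. Tek (ENSMUSG00000006386) had 0.515 and 0.569 FPKM in cKO 1 and 2, against 0.961, 0.693 and 1.02 FPKM in Ctrl 1, 2 and 3. Each gene's cKO libraries were close to each other and outside the Ctrl range, in opposite directions. The ratio of Tie1 to Tek FPKM was 0.996 and 1.16 in cKO 1 and 2, against 0.179, 0.0794 and 0.139 in Ctrl 1, 2 and 3, a pair set side by side after the values were seen.

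The log2 fold change of Tie1 was 2.01 (SE 0.62, edgeR adjusted p = 0.0808), which is 4.02-fold, and it lay between 1.67 and 2.41 with each library left out. DESeq2 called it (adjusted p = 0.0371), as did limma on FPKM with 1 or 0.1 added (adjusted p = 0.0263 and 0.038). For Tek the log2 fold change was −0.88 (SE 0.34, edgeR adjusted p = 0.133), which stayed between −1.04 and −0.73 with each library left out and was called in none of these. Its 57 and 60 counts in cKO and 65 to 119 counts in Ctrl left Ctrl 2 only just above the cKO libraries.

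The start regions of the called ligand and of this receptor pair are printed here, because the estimates for Tie1 and Tek had opposite signs. RefSeq start regions (GRCm38.p6, not the build of the counts) were at hand for 6 of the 10 genes (Vegfa, Kdr, Flt1, Tek, Tie1 and Eng), and Angpt1, Angpt2, Pecam1 and Cdh5 had none in that table. Each line gives the 250 bases before the start on the gene's own strand, in lower case. Capitals mark GGAA or its reverse complement TTCC, the core bound by ETS factors, a family known to act on endothelial promoters.
Vegfa, chr17:46032378-46032627, minus strand: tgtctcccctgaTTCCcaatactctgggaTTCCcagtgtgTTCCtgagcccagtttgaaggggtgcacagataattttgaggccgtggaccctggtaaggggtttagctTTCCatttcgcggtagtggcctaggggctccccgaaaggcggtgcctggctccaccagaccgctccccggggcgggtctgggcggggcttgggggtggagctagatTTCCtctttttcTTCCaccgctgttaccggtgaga
Tie1, chr4:118489850-118490099, minus strand: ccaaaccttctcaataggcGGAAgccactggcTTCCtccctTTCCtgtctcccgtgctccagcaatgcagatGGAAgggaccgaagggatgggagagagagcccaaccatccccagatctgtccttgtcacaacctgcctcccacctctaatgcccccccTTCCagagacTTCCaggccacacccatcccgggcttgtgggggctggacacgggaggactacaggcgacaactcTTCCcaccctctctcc
Tek, chr4:94739039-94739288, plus strand: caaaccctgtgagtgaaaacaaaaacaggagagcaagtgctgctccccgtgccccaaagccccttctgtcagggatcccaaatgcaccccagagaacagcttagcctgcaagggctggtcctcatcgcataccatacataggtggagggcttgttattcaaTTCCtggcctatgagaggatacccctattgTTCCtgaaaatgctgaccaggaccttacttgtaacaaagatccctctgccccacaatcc
The core occurs 6 times in the Vegfa window, 7 times in the Tie1 window and 2 times in the Tek window, counted on both strands. In the windows of Kdr, Flt1 and Eng, not printed here, it occurs 4, 4 and 3 times. Of 32851 mouse start regions of this length, 93.4% hold it at least once. GGAATG, which contains GGAA, is the core of TEAD factors, the DNA-binding partners of YAP1. It was found in none of the 3 printed windows, and 12.6% of all start regions hold it. ACGTG, the core of hypoxia response elements, was in none of the 3 either, against 16.6% of all start regions. The table lists a second Vegfa start region, chr17:46025164-46025413, not printed here, which holds ACGTG 1 time and GGAA or TTCC 2 times. Unlike the 3 printed windows, this one was not followed by bases found near the start of a reference transcript of its gene. Whether it is a promoter is therefore not known. A match or its lack describes these letters only.

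The VEGF receptors were measured at low levels, and neither passed the test. Flt1 (ENSMUSG00000029648) had 0.466 and 0.519 FPKM in cKO 1 and 2, against 0.275, 0.223 and 0.111 FPKM in Ctrl 1, 2 and 3, with no overlap. Its log2 fold change of 1.05 (SE 0.51) did not pass (edgeR adjusted p = 0.212). Kdr (ENSMUSG00000062960), the main signalling receptor, had 12 and 0 counts in cKO 1 and 2, against 8, 16 and 12 counts in Ctrl 1, 2 and 3. In cKO 1 it was thus within the Ctrl range, and in cKO 2 it was not detected, which sets that library at least 4.81-fold below the Ctrl mean when its floor of 3 counts is used. The log2 fold change over all libraries was −1.13 (SE 1.35, edgeR adjusted p = 0.614), with an error larger than the change itself. Without cKO 1, which leaves only the library at 0, the Kdr estimate was −6.68, a size that depends on the prior count of the fit.

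Endothelial junction genes were low in Ctrl lenses and higher in both cKO pools. Pecam1 (ENSMUSG00000020717) had 43 and 53 counts in cKO 1 and 2, against 19, 8 and 14 counts in Ctrl 1, 2 and 3, or 0.634 ± 0.146 FPKM in cKO (n = 2) and 0.171 ± 0.0683 FPKM in Ctrl (n = 3). Its log2 fold change was 1.62 (SE 0.58, edgeR adjusted p = 0.112), and it stood at 1.69 without cKO 1 and 1.54 without cKO 2. Cdh5 (ENSMUSG00000031871) had 18 and 18 counts in cKO 1 and 2, against 9, 2 and 2 counts in Ctrl 1, 2 and 3. With so few counts its log2 fold change of 1.82 had an SE of 0.93 (edgeR adjusted p = 0.234), and it stood at 2.98 without Ctrl 1, the Ctrl library with the most counts. PECAM-1 is also made by platelets and leukocytes, whereas VE-cadherin is largely endothelial. Eng (ENSMUSG00000026814) had 1.23 and 0.671 FPKM in cKO 1 and 2, against 0.519, 0.287 and 0.738 FPKM in Ctrl 1, 2 and 3, so that cKO 2 lay inside the Ctrl range. Its log2 fold change was 0.74 (SE 0.55, edgeR adjusted p = 0.406).

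**Figure D2:**
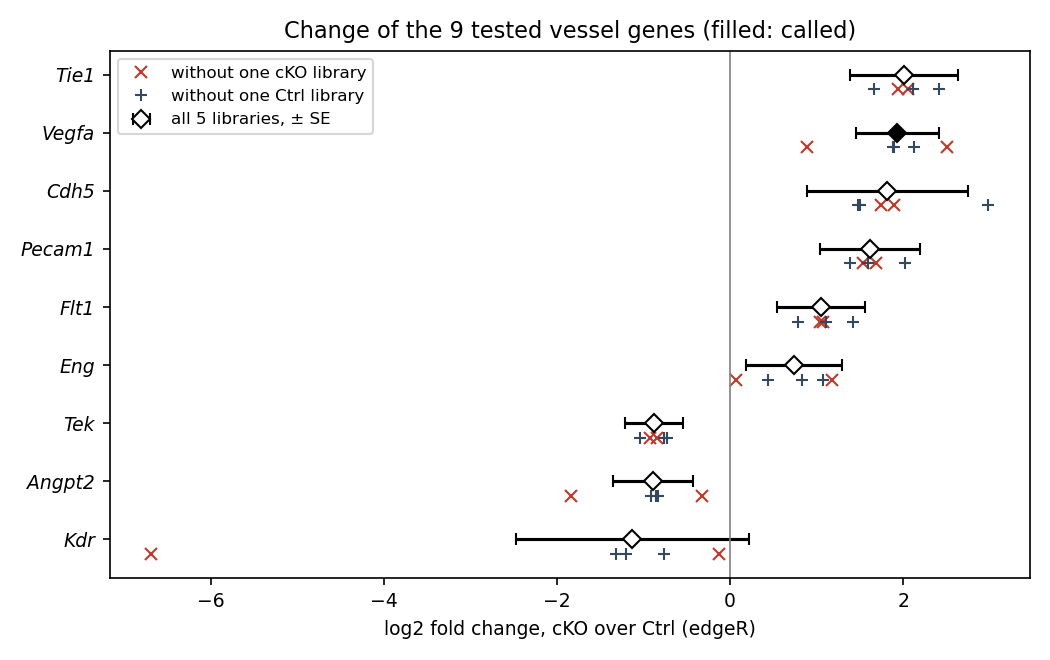
Log2 fold changes (cKO over Ctrl, edgeR) of the 9 tested vessel genes, with diamonds and bars for the estimate ± SE over 5 libraries and crosses for fits with 1 library left out. The filled diamond marks Vegfa, the called gene, whose estimate ranged from 0.89 to 2.51. The lowest Kdr cross is the fit in which the remaining cKO library had 0 counts, so its place depends on the prior count of the fit.

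Summed over the 7 endothelial receptor and junction genes (Kdr, Flt1, Pecam1, Cdh5, Tek, Tie1 and Eng), the level was 14.5 and 12.0 CPM in cKO 1 and 2, against 11.3, 7.18 and 9.44 CPM in Ctrl 1, 2 and 3. The ratio of the group means was 1.42, and it moved to 1.65 under total-count scaling. The make-up of this sum also differed between the groups. Tek took 14.6 and 17% of the summed FPKM in cKO 1 and 2, against 41.4, 45.9 and 44.8% in Ctrl 1, 2 and 3. Tie1 and Pecam1 took 14.6 to 22.0% each in cKO, against 3.64 to 10.5% in Ctrl. Eng overlapped between the groups, at 34.8 and 20.01% in cKO 1 and 2, against 22.4, 19.0 and 32.5% in Ctrl 1, 2 and 3.

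**Figure D3:**
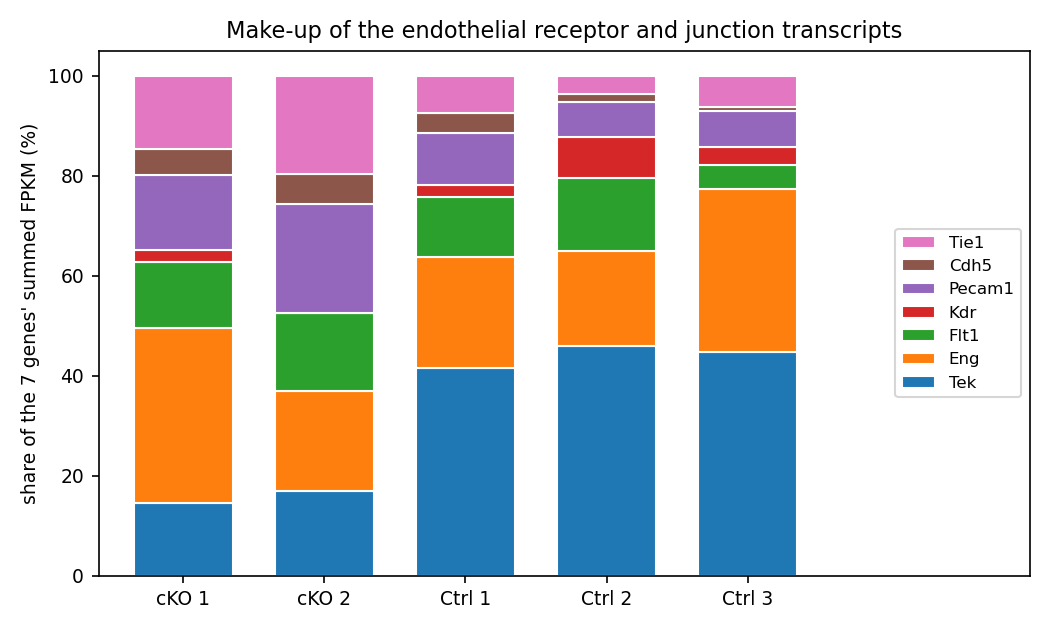
Share (%) of each of 7 endothelial genes in their summed FPKM, 1 bar per library. Tek (blue, at the base) takes 14.6 and 17% in the cKO libraries and 41.4 to 45.9% in the Ctrl libraries.

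Among other genes of the VEGF family, Vegfb rose. Of 7 in the table, 4 were tested, 1 rose and 0 fell (edgeR), where 5.76% of all tested genes rose and 7.73% fell. DESeq2 called 2 higher and 0 lower. Vegfb, a ligand of FLT1 linked to fat handling and vessel survival, had 19.0 and 21.7 CPM in cKO 1 and 2, against 8.68, 6.98 and 4.84 CPM in Ctrl 1, 2 and 3. It rose by 1.58 (SE 0.27, edgeR adjusted p = 0.0212) and missed the threshold without any one Ctrl library (edgeR adjusted p = 0.0696 to 0.12). The estimate was 1.66 without cKO 1 and 1.49 without cKO 2. Pgf, a ligand of FLT1 as well, gave 0.47 in log2 units (SE 0.20, edgeR adjusted p = 0.164). Nrp2, picked once its values were known, a co-receptor of VEGF and semaphorins, had 106 and 55 counts in cKO 1 and 2, against 11, 16 and 5 counts in Ctrl 1, 2 and 3. Its log2 fold change of 2.69 (SE 0.69) missed the threshold (edgeR adjusted p = 0.0526), and DESeq2 called it (adjusted p = 0.00703).

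A wider list of 21 vessel ligands, receptors and modulators held 12 tested genes, of which edgeR called 0, against 13.5% of all tested genes. At an unadjusted p under 0.05 there were 2 higher and 0 lower, and DESeq2 also called 0. The most abundant were Jag1, a Notch ligand, and Ednrb, an endothelin receptor, with log2 fold changes of −0.29 (SE 0.44) and 0.85 (SE 0.46). Both had overlapping groups, since cKO 1 was far below cKO 2 in each (300 and 1054 counts for Jag1, 399 and 1347 counts for Ednrb). The Ctrl libraries had 640 to 864 counts for Jag1 and 297 to 590 counts for Ednrb.

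The deposited table itself names gene sets. The Gene Ontology term angiogenesis marked 265 genes, of which 176 were tested, 9 rose and 15 fell, which is 13.6% against 13.5% of all tested genes, with a median log2 fold change of −0.05. Above a mean of 5 CPM and with no overlap between groups, the 4 risen genes of largest change were Vegfa, Vegfb, Ecm1 and Ninj1. Ecm1 (2.55, SE 0.61, edgeR adjusted p = 0.044) encodes a matrix protein and Ninj1 (1.29, SE 0.18, edgeR adjusted p = 0.0145) a membrane protein. Ecm1, like Vegfa, had far more counts in cKO 2 than in cKO 1 (657 and 164), against 40 to 83 counts in Ctrl. The same rule names the fallen genes Hif1a, Pxdn, Col4a1 and Col4a2, of which Pxdn encodes an enzyme that crosslinks collagen IV and fell by 2.08 (SE 0.20, edgeR adjusted p = 0.00609). Without Ctrl 1, 2 or 3 the set had 0 rises and 1, 0 and 1 falls.

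The VEGF signalling pathway of KEGG held 60 genes, of which 44 were tested, 4 rose and 4 fell, which is 18.2% against 13.5% of all tested genes. The median log2 fold change was −0.28, with 13 genes positive and 31 negative, and it stood at −0.05 under total-count scaling. Picked once their values were known, the risen genes were Vegfa, the adaptor Shc2 and the Ras-ERK genes Hras and Mapk3. Shc2 had 61 and 82 counts in cKO 1 and 2, against 11, 9 and 14 counts in Ctrl 1, 2 and 3, a rise of 2.47 (SE 0.46, edgeR adjusted p = 0.0261). The fallen genes were Plcg1 and Plcg2, the phospholipases Cγ, together with Prkca, a protein kinase C, and Pla2g4a, a phospholipase A2. Plcg1, the form that acts directly under KDR, had 39 and 44 counts in cKO 1 and 2, against 106, 90 and 164 counts in Ctrl 1, 2 and 3, and fell by 1.68 in log2 units (SE 0.32, edgeR adjusted p = 0.0275). Plcg2, known from blood cells, was at 0 in both cKO libraries and at least 9.37-fold lower, with a floor of 3 counts per library, and it passed the count filter only through Ctrl. Without Ctrl 1, 2 or 3 none of the 44 genes was called.

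Regulators of oxygen-dependent transcription, to which Vegfa answers in many tissues, went both ways. Of 20 tested HIF factors and targets, 2 rose and 3 fell, where 5.76% of all tested genes rose and 7.73% fell, and the median log2 fold change was −0.04. Hif1a, the oxygen-regulated subunit, had 34.2 and 23.0 CPM in cKO 1 and 2, against 139, 137 and 217 CPM in Ctrl 1, 2 and 3. It fell by 2.52 in log2 units (SE 0.31, edgeR adjusted p = 0.0102), and the adjusted p lay between 0.0445 and 0.067 with 1 Ctrl library left out. Hif3a was at 0 in both cKO libraries and fell at least 5.06-fold, with a floor of 3 counts per library. It passed the count filter only through the Ctrl libraries, where it is high, so the filter favoured a fall. The most abundant genes of the list, Ndrg1 and Ldha, were not called, with log2 fold changes of −0.68 (SE 0.23) and 0.31 (SE 0.27). The risen genes, picked once their values were known, were Bnip3, a mitophagy receptor, and Egln1, the oxygen sensor that marks HIF-α for decay. Besides Hif1a and Hif3a the fallen gene was Vhl, picked in the same way, at −0.86 in log2 units (SE 0.21, edgeR adjusted p = 0.0484).

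Secreted inhibitors of vessel growth were lower where they were called. Of 10 tested inhibitors 0 rose and 3 fell, where 5.76% of all tested genes rose and 7.73% fell, and the median log2 fold change was −0.66, or −0.40 under total-count scaling. Thbs1, thrombospondin 1, had 54 and 8 counts in cKO 1 and 2, against 290, 474 and 208 counts in Ctrl 1, 2 and 3, and fell by 3.58 in log2 units (SE 0.86, edgeR adjusted p = 0.0448). Serpinf1, which encodes pigment epithelium-derived factor, had 34 and 74 counts in cKO 1 and 2, against 310, 221 and 325 counts in Ctrl 1, 2 and 3, and fell by 2.59 (SE 0.36, edgeR adjusted p = 0.0138). The third was Sema3f, a neuropilin ligand, picked once its values were known. Sparc and Timp2, the most abundant of the list, overlapped between the groups, and none of the 10 genes was called without Ctrl 1, 2 or 3.

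Around Eng, 16 genes of its TGF-β and BMP pathway were tested, of which 2 rose and 3 fell, against 5.76% risen and 7.73% fallen among all tested genes, with a median log2 fold change of 0.00. The risen genes Id2 and Id1 (1.16, SE 0.13, and 1.04, SE 0.23) and the fallen gene Id3 (−1.25, SE 0.28) are all targets of BMP signalling, so members of 1 target family went opposite ways. Each kept its direction and its call under the other scalings tried. Smad1, a transducer of the pathway, fell by 2.55 in log2 units (SE 0.32, edgeR adjusted p = 0.0118). The endothelial ligands Gdf2 and Bmp10 had no count in any library, and none of the 16 genes was called without Ctrl 1, 2 or 3.

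**Figure D4:**
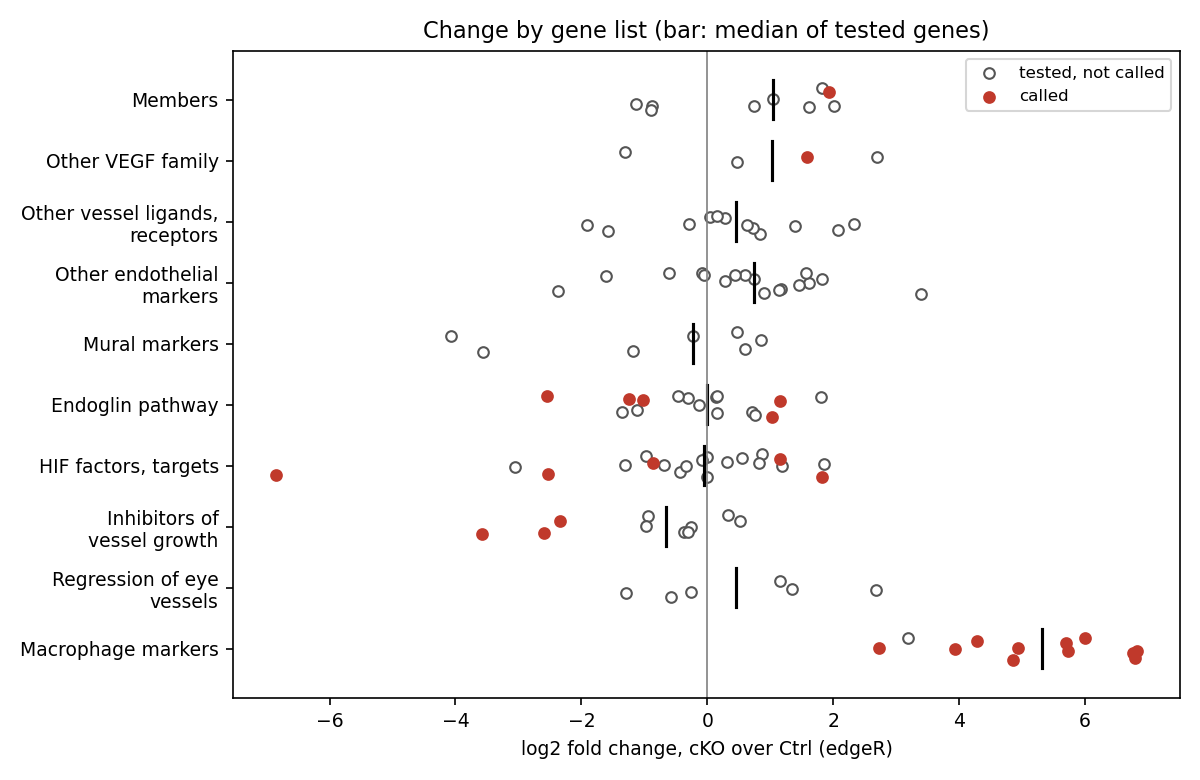
Log2 fold changes (cKO over Ctrl, edgeR) of the tested genes in each list, 1 row per list and 1 point per gene. Filled points are called genes and vertical marks are list medians. The inhibitor row has its 3 called genes to the left of 0 and the macrophage row has its 11 called genes to the right.

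Genes tied to the regression of the hyaloid vessels gave 0 calls among 6 tested (edgeR, against 13.5% of all tested genes). At an unadjusted p under 0.05, 1 was higher and 1 lower, and DESeq2 called 0. Wnt7b had a log2 fold change of −0.25 (SE 0.20) and Tspan12, a co-receptor of the Norrin pathway, one of −0.58 (SE 0.27).

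Markers of the cells that could carry the vessel transcripts were read in the same libraries. Of 28 endothelial markers 17 were tested and 0 were called by edgeR, where 13.5% of all tested genes were. At an unadjusted p under 0.05, 5 were higher and 2 lower, and DESeq2 called 2 higher and 1 lower. Of the 17, 2 (Vwf and Ecscr) passed the count filter only through cKO, so the filter favoured higher values for these. The median log2 fold change of the 17 was 0.74, with 12 genes positive and 5 negative. Sums were taken over 25 of the 28 markers, without Prox1, Podxl and Lyve1. They were 54.9 and 33.6 CPM in cKO 1 and 2, against 35.3, 23.4 and 41.4 CPM in Ctrl 1, 2 and 3, and overlapped. The most abundant of the 17 were Prox1 and Egfl7, with log2 fold changes of 0.44 (SE 0.17) and 0.29 (SE 0.24). Prox1 is also made by the lens itself. Cldn5, a tight junction gene picked once its values were known, had 319 and 176 counts in cKO 1 and 2, against 80, 32 and 111 counts in Ctrl 1, 2 and 3 (log2 fold change 1.62, SE 0.49, edgeR adjusted p = 0.0773).

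Mural cell markers gave 0 calls among 7 tested (edgeR, against 13.5% of all tested genes). Both at an unadjusted p under 0.05 and by DESeq2, 0 were higher and 1 lower. The marker sums were 271 and 296 CPM in cKO 1 and 2, against 234, 229 and 168 CPM in Ctrl 1, 2 and 3. The median log2 fold change was −0.23, with 3 genes positive and 4 negative, and it stood at 0.03 under total-count scaling. The sums are mainly Acta2, which with Rgs5 was the most abundant, and these had log2 fold changes of 0.47 (SE 0.20) and 0.61 (SE 0.28). Of the 7 genes 3 passed the count filter only through Ctrl.

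Macrophage markers had a median log2 fold change of 5.32. Of 12 tested 11 rose, where 5.76% of all tested genes did, but 8 of the 12 passed the count filter only through cKO. Of the 12, 11 would not have passed it by their Ctrl libraries alone, so their being tested depended on high cKO values. The sums of all 18 markers were 213 and 47.5 CPM in cKO 1 and 2, against 4.55, 2.25 and 3.49 CPM in Ctrl 1, 2 and 3. Ctss, a lysosomal protease, had 1433 and 135 counts in cKO 1 and 2, against 6, 2 and 11 counts in Ctrl 1, 2 and 3. None of the 12 was called without Ctrl 1, 2 or 3. The macrophage sum was higher in cKO 1 than in cKO 2, as were Kdr, Angpt1, Angpt2 and Eng in CPM. Vegfa, Pecam1 and Tie1 were higher in cKO 2. Flt1 (2.94 and 2.91 CPM in cKO 1 and 2), Cdh5 (0.735 and 0.670 CPM) and Tek (2.33 and 2.23 CPM) were nearly equal.

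Platelet markers, which bear on Pecam1, summed to 4.25 and 2.76 CPM in cKO 1 and 2, against 0.696, 0.781 and 0.461 CPM in Ctrl 1, 2 and 3. Red cell markers overlapped, at 65.6 and 2.20 CPM in cKO 1 and 2, against 50.01, 5.42 and 20.2 CPM in Ctrl 1, 2 and 3. Both lists had 0 calls among 4 red cell and 2 platelet genes tested (edgeR, against 13.5% of all tested genes). At an unadjusted p under 0.05, 0 red cell and 2 platelet genes were higher, and DESeq2 called 0 and 1 higher. Of the 2 platelet genes, Pf4 passed the count filter only through cKO. It had 67 and 17 counts in cKO 1 and 2, against 3, 0 and 1 counts in Ctrl 1, 2 and 3. Of the 5 platelet markers, 3 had 0 counts in both cKO libraries. Retina and pigment markers, a sign of other eye tissue, summed to 18.2 and 4.62 CPM in cKO 1 and 2, against 52.8, 17.8 and 10.02 CPM in Ctrl 1, 2 and 3. Of 11 stromal cell markers 4 were tested, 2 rose and 1 fell, where 5.76% of all tested genes rose and 7.73% fell. None of the 4 was called without Ctrl 1, 2 or 3. Col1a1, a fibrillar collagen, rose with 66 and 127 counts in cKO 1 and 2, against 8, 2 and 1 counts in Ctrl 1, 2 and 3. Of the 4 tested genes, 2 (Col1a1 and Postn) passed the count filter only through cKO. Pdgfra, a growth factor receptor, fell with 48 and 0 counts in cKO 1 and 2, against 442, 415 and 513 counts in Ctrl 1, 2 and 3. Dcn, not tested, had 275 and 0 counts in cKO 1 and 2, against 0, 2 and 0 counts in Ctrl 1, 2 and 3. The part of these other cells in the vessel gene values was not tested.

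**Figure D5:**
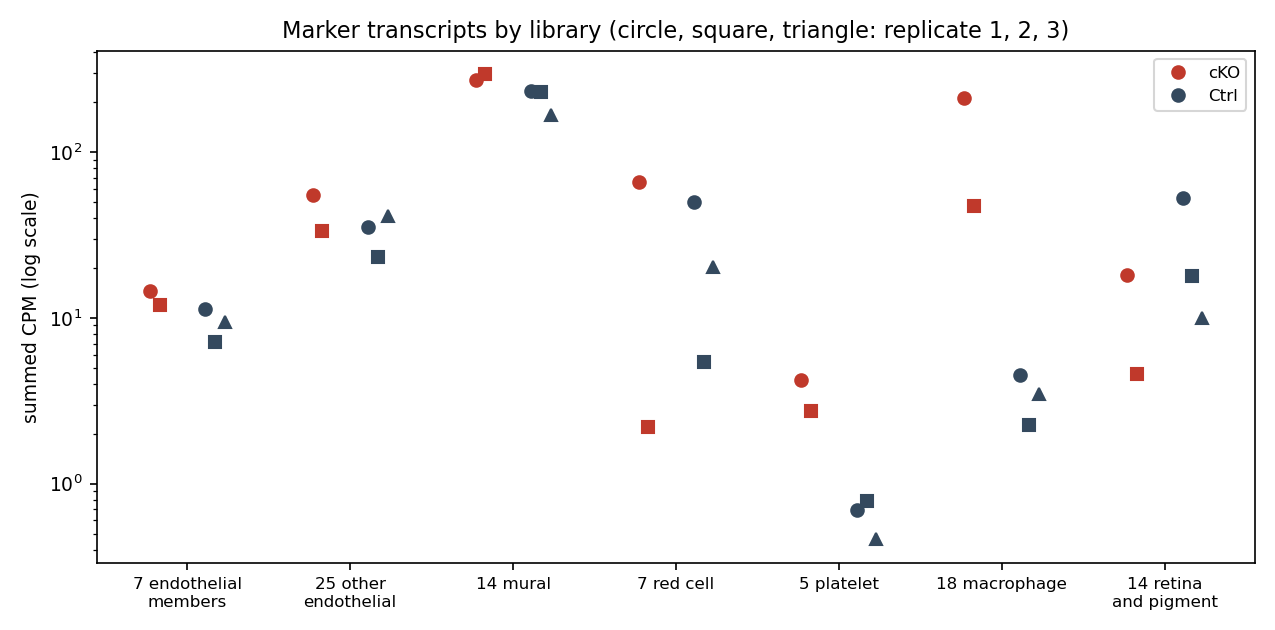
Summed levels (CPM, log axis) of marker lists for other cell types in each library, with cKO in red and Ctrl in dark blue. The macrophage sums of both cKO libraries, 213 and 47.5 CPM, lie above all Ctrl sums, while the red cell sums of the groups overlap.

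Genes whose pattern over the 5 libraries was most like that of Vegfa were Rgs4, Btbd17, Ptp4a3 and Slc2a8. Their root-mean-square differences from Vegfa, in log2(CPM + 0.5) centred on each gene's mean, were 0.0736, 0.158, 0.179 and 0.183. Rgs4 had 84.8 and 280 CPM in cKO 1 and 2, against 48.4, 52.5 and 65.1 CPM in Ctrl 1, 2 and 3, with cKO 2 highest as in Vegfa. Closest to Tek, which had the highest mean level of the 7 endothelial genes over all 5 libraries but not within cKO, were Alad, Utp6, Rcan1 and Gart, at 0.0682 to 0.0880. With 5 libraries such likeness is a description and carries no test.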

How the data were processed

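Poly(A) RNA of 5 pools of P14 lenses was sequenced, and the pools, which the labels call biological replicates, are the n of all tests. The authors deposited 1 table with an expected count, not scaled between libraries per the values, and an FPKM value per gene and library. Among the tools in the submitters' processing notes are RSEM and Trimmomatic 0.18.0, with GRCm39 as the genome build. The role of each tool, an aligner and a strand setting are not stated there. The deposited FPKM values correct for gene length and depth, per the file headers. All 50 expected counts of the 10 vessel genes were whole numbers.

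Expected counts were rounded. Low genes were removed by filterByExpr (a count of at least 10, a total of at least 15), and libraries were scaled by TMM and tested with edgeR 4.0.16 (R 4.3.3) by its quasi-likelihood F test, cKO against Ctrl, with no batch or block term and with Benjamini-Hochberg adjustment over 11724 genes at a threshold of 0.05. SEs were taken from the F statistic. The fit was tested on simulated data. DESeq2 1.42.0, limma 3.58.1 on log2(FPKM + 1) and log2(FPKM + 0.1), other scalings, no filter, a replicate block and leaving out each library were alternatives. On the log2(FPKM + pseudocount) scale the change of low genes is understated. A count of 0 was set to a floor of 3 counts in each library concerned. Floors cover counting error only.

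The vessel genes, the lists and the rule for naming genes were chosen with earlier results of these data known. The rule names the 10 vessel genes, up to 4 genes per list (by abundance, and by size of change among called ones), the 4 most changed called angiogenesis genes each way with a mean CPM of at least 5 and no overlap, and the 4 genes most like Vegfa and Tek with a mean CPM of at least 10.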

Additional observations from a re-analysis of the deposited data

How the results depend on the processing

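Each of the 9 tested vessel genes kept its sign under all 13 alternatives. Of the 10 vessel genes, 1 was called higher and 0 lower, and these counts were the same with RLE size factors, total-count scaling and no count filter. DESeq2 called 2 higher, limma on log2(FPKM + 1) called 2, Tie1 and Pecam1, with Vegfa lost (adjusted p = 0.0563), limma on log2(FPKM + 0.1) called 2, Vegfa and Tie1, and scaling by counts outside the crystallins, an alternative chosen after seeing the data, called 0, with Vegfa at an adjusted p of 0.0547 (edgeR). Leaving out 1 library gave 0 to 3 vessel genes higher and 0 to 2 lower, with Vegfa not called without any one Ctrl library. Among all genes, 675 were called higher and 906 lower. The counts were 1234 higher under total-count scaling, 1209 higher and 1521 lower with DESeq2, and 1380 and 1402 higher with limma on log2(FPKM + 1) and log2(FPKM + 0.1). They ranged from 6 to 2197 higher and 15 to 2964 lower with 1 library left out, where a cKO library left alone is taken to vary as much as the rest. The replicate numbers are shared by 2 cKO and 2 Ctrl libraries, nothing in the labels says that a number marks a shared litter or day, and the correlations of deviations were 0.111 and −0.0834 for numbers 1 and 2. With the replicate number as a block, 0 vessel genes were called higher, and 68 genes were called higher and 107 lower in all. The ratio of the summed endothelial genes, 1.42, was 1.65 under total-count scaling and 1.28 to 1.59 with 1 library left out. The cause of these shifts was not tested. Depth limits Kdr, Cdh5 and Angpt1, which had at most 18 counts in any library.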

Other observations

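Several vessel genes outside the 10 were detected in cKO 1 and had 0 counts in cKO 2, as Kdr had. They were picked out after their values were seen and carry no test. The adhesion genes Sele and Selp, made by activated endothelium, had 32 and 18 counts in cKO 1 and 0 in cKO 2 and in all 3 Ctrl libraries. Dll4, a Notch ligand of sprouting vessels, had 34 and 0 counts in cKO 1 and 2, against 6, 1 and 6 counts in Ctrl 1, 2 and 3. The endothelial transcription factor genes Sox7, Sox17 and Sox18 had 26, 11 and 27 counts in cKO 1 and 0 in cKO 2, against 1 to 18 counts in the Ctrl libraries. Flt4, the receptor of VEGF-C, had 16 and 0 counts in cKO 1 and 2, against 5, 2 and 3 counts in Ctrl 1, 2 and 3. Dcn, a gene of stromal cells, had 275 and 0 counts in cKO 1 and 2, against 0, 2 and 0 counts in Ctrl 1, 2 and 3. A count of 0 in cKO 2 allows up to 3 counts, or 0.112 CPM, in that library. Tie1, Pecam1, Flt1 and Cdh5, by contrast, had 61, 53, 78 and 18 counts in cKO 2.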
